A study of Mus musculus with 6 samples.

Results

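Tight and adherens junctions are the contacts that seal neighbouring endothelial and epithelial cells to each other, and the genes described here are 10 of their components. They were chosen by symbol: the claudins Cldn3, Cldn4, Cldn5, Cldn7 and Cldn18, the tight junction proteins Ocln and Tjp1, the cadherins Cdh5 and Cdh1, and the immunoglobulin adhesion protein Esam. All 10 were found among the 32285 genes of the count matrices. Each was read in every cell class and every library, and 78 further junction genes, from a list of 80, were read beside them.

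The study exposed newborn wild-type C57BL/6N mice to 95% oxygen from postnatal day 1 to day 5 and returned them to room air (21% oxygen), a model of neonatal hyperoxic lung injury followed by recovery. Whole lungs were dissociated, live cells were sorted, and 10x Genomics 3-prime libraries were sequenced. There were 6 libraries, each from the pooled lungs of 3 mice: female and male room air at day 1, female and male room air at day 21, and female and male hyperoxia at day 21. Cell classes are the cluster names the authors deposited for each barcode. Every group of 1 sex, age and exposure was therefore a single library, and the mice of a pool cannot be told apart. No group had a further library, so P-values do not measure the spread between libraries of a group. The hyperoxia and age fits take the effect of sex as additive and leave 1 residual degree of freedom. Values are given below in the order day 1 female and male, day 21 room air female and male, day 21 hyperoxia female and male, and levels are CPM, UMIs of a gene per 1000000 UMIs of the summed cells of a class.

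The libraries held 7074 to 11543 cells with a class, with a median of 8329 to 9703 UMIs per cell. Between 9 and 37 cell barcodes were shared by each pair of libraries (0.127% to 0.376% of the smaller library). In the female hyperoxia library 43.8% of the cells had no Xist UMI, against 15.6% and 22.8% in the other 2 female libraries, so this library stood apart from its label in that respect, and the counts of calls are also given without those cells. Endothelial cells made up 27.6%, 25.0%, 36.8%, 34.9%, 46.5% and 53.1% of the cells with a class. Epithelial cells made up 21.8% and 30.3% at day 1 but 0.297% to 1.94% at day 21, which left 165, 21, 99 and 141 epithelial cells in the day 21 libraries. The libraries also differed in software: the file headers name Cell Ranger 6.0.0 for day 1 and 7.0.1 for day 21, so age and counting software cannot be told apart.

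Claudins are membrane proteins that set which ions and molecules pass between cells, and occludin (Ocln) sits beside them in the same strands. ZO-1 (Tjp1) is the cytoplasmic scaffold that ties both to actin. Cadherins form the adherens junction below: VE-cadherin (Cdh5) joins endothelial cells and E-cadherin (Cdh1) joins epithelial cells. Esam is an adhesion protein of endothelial tight junctions and of platelets. In the lung, claudin-5 is the main claudin of the vessel wall, and claudin-18, claudin-3 and claudin-4 belong to the alveolar epithelium, where type 1 cells (AT1) form the thin gas exchange surface and type 2 cells (AT2) make surfactant. The capillary bed has general capillary cells (gCap) and aerocytes (aCap), the latter being the capillary cells that face the AT1 cell.

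Cldn3, Cldn4 and Cldn5 are each encoded in a single exon, and their start regions are shown because the first pair, expressed in epithelium, and the third, expressed in endothelium, differed in 1 short motif. The window runs from 250 bases before to 50 bases after the transcript start (RefSeq, GRCm38.p6), on the gene's strand. Capitals mark CAGGTG or its reverse complement CACCTG, the E-box letters bound by Snail-type repressors of epithelial junction genes.
Cldn5: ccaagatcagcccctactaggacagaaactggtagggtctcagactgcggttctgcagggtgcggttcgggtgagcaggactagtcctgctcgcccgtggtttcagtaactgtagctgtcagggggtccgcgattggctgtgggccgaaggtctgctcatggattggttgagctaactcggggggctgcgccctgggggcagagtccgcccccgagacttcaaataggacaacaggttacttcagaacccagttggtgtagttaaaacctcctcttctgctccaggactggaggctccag
Cldn3: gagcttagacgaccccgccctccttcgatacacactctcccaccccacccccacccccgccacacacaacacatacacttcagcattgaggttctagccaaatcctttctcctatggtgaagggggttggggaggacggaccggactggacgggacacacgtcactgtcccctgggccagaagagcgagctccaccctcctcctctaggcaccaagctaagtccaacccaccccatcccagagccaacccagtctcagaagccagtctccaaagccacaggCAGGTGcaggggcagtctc
Cldn4: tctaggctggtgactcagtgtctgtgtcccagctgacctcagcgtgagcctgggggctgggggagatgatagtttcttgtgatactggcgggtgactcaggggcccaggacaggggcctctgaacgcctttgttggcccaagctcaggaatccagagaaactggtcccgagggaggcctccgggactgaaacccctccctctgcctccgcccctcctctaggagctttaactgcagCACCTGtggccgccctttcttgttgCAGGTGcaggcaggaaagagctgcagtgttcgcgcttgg
The Cldn5 window lies at chr16:18776597-18776896 on the plus strand and has 0 matches. The Cldn3 window lies at chr5:134985964-134986263 on the plus strand and has 1 match. The Cldn4 window lies at chr5:134946885-134947184 on the minus strand and has 2 matches. Windows were found for 7 of the 10 genes, 4 of which (Cldn3, Cldn4, Cldn7 and Ocln) held the letters in at least 1 window. Cldn18, also expressed in epithelium, had 0 matches in each of its windows, like Cldn5. No window was found for the other endothelial members, Cdh5 and Esam. The same letters stand in 20.2% of all 32851 windows of this length, on either strand. The other motifs searched on both strands were the ETS core GGAAG (71.4% of all windows, 4 of the 7 genes) and the SOX core AACAAT (10.7% of all windows), neither of which stands in the 3 windows printed. A match describes letters only.

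Among the endothelial members, Cldn5 was highest in aCap cells in every library. Its level in aCap was 6648, 5663, 3757, 5103, 4550 and 4737 CPM. In gCap it was 2441, 1997, 2087, 2760, 2694 and 2784 CPM, and in arterial cells 2436, 2193, 1589, 2132, 2144 and 2191 CPM. The aCap libraries did not overlap those of any other class at either age, whereas gCap and arterial overlapped at both. Venous cells were lower, at 1471, 1165, 902.5, 1312, 944.8 and 1034 CPM. Lymphatic endothelial cells, which had no class at day 1, held 1289, 1815, 1326 and 1602 CPM at day 21 and overlapped both arterial and venous cells.

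**Figure D1:**
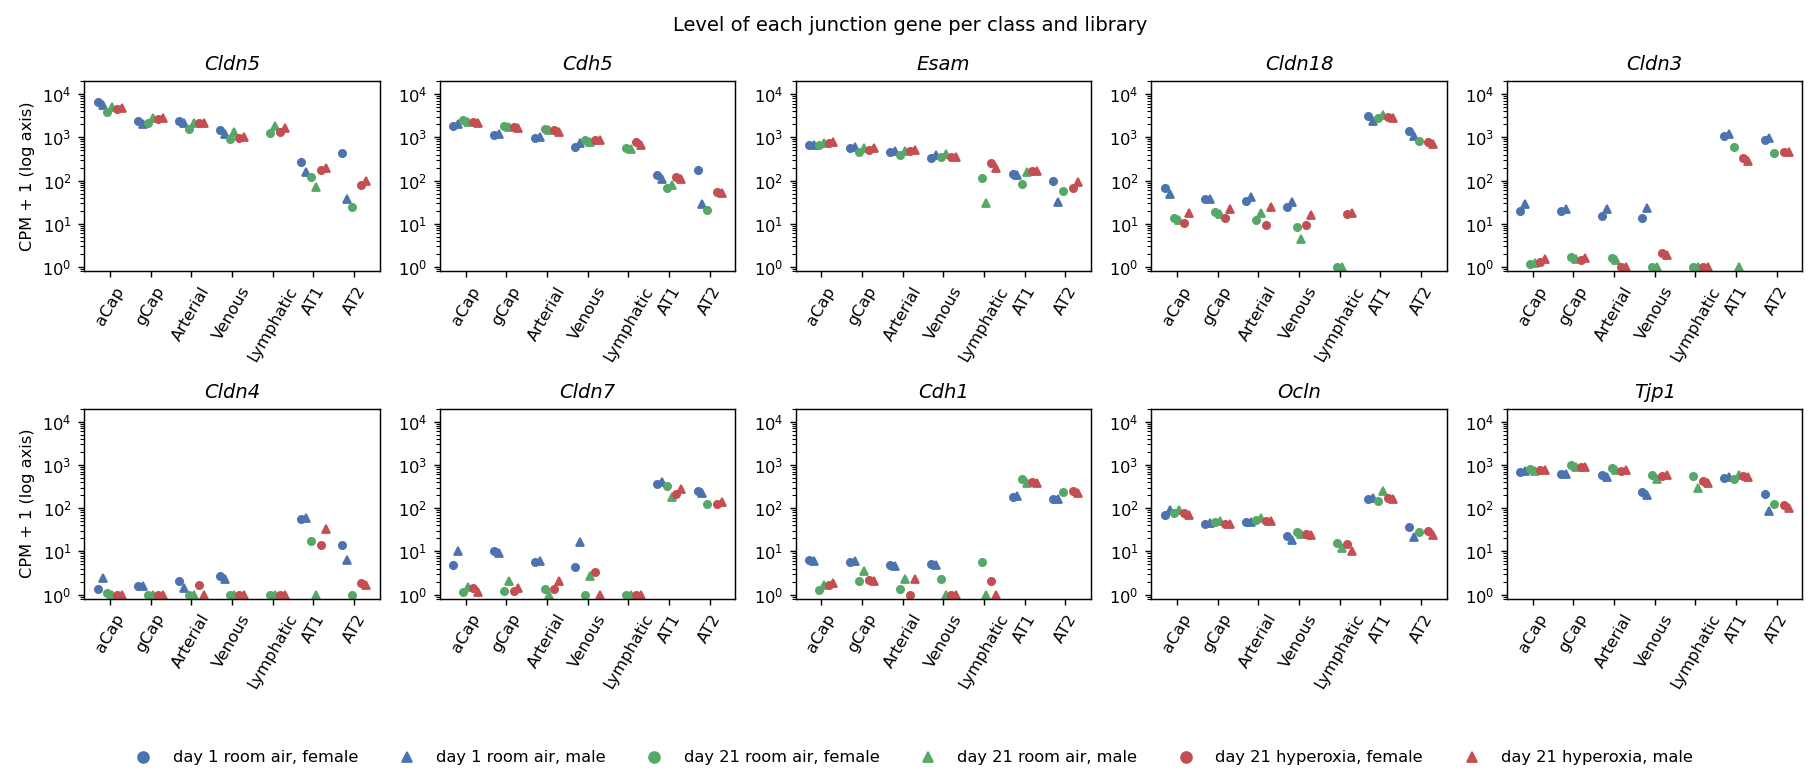
Level of each junction gene (CPM + 1, log axis) in 5 endothelial and 2 alveolar epithelial classes. Each point is 1 library with at least 10 cells of the class: circles are female, triangles male, blue day 1 room air, green day 21 room air and red day 21 hyperoxia. Cldn5, Cdh5 and Esam are highest in aCap, Cldn18 in AT1, and Tjp1 and Ocln are present in both lineages.

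Cdh5 was also highest in aCap. It stood at 1830, 1988, 2465, 2299, 2313 and 2191 CPM in aCap and at 1151, 1206, 1803, 1772, 1696 and 1673 CPM in gCap. Arterial cells held 961.8, 1016, 1544, 1489, 1458 and 1341 CPM, and venous cells 585.6 to 870.8 CPM. Lymphatic cells held 572.1, 526.3, 777.3 and 679.8 CPM at day 21, below the venous level of the same library in all 4, whereas for Cldn5 they lay above it in all 4. For Cdh5 the aCap and gCap libraries were apart at each age, with aCap the higher.

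Esam was also highest in aCap, at 659, 647.1, 666.7, 747.6, 720.4 and 758.5 CPM, against 448.8 to 587.8 CPM in gCap, 387.4 to 509.5 CPM in arterial and 322.8 to 408.4 CPM in venous cells. Lymphatic cells held less, at 110.6 and 28.6 CPM in room air and 247.7 and 194.2 CPM after hyperoxia. The order aCap first held for Cldn5, Cdh5 and Esam, and AT1 first for Cldn18, in 24 of 24 pairs of gene and library. These orders are descriptions, since the genes were chosen as markers of these cells.

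Single cells held the endothelial members together. A UMI of each of Cldn5, Cdh5 and Esam was present in 94.2% to 99.7% of aCap cells and in 84.9% to 97.8% of gCap cells. Thinned to 2000 UMIs per cell, the share was 69.0% to 77.6% in aCap and 53.6% to 63.9% in gCap in room air, and 72.5%, 75.4%, 60.8% and 64.2% in the same classes after hyperoxia.

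The epithelial members separated by cell type and by age. Claudin-18 was the AT1 claudin at both ages, with 3121, 2409, 2736, 3340, 2909 and 2773 CPM in AT1 and 1370, 1053, 840.4, 889.2, 770.1 and 689.2 CPM in AT2. The 2 classes did not overlap. At day 21 the AT1 class held only 32, 14, 40 and 57 cells and the AT2 class 133, 7, 59 and 84, so these levels rest on few cells. Of the 54 AT2 cells in the day 1 female library, 79.6% were called doublets. The day 1 libraries also held a larger type 2 class, AT2 Lyz1+, with 407 and 1021 cells. It is not part of the AT2 values given here, which at day 1 describe the smaller class only.

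Cldn3, a sealing claudin of alveolar epithelium, stood at 1071 and 1194 CPM in AT1 at day 1 and at 606.6, 0, 333.1 and 287.0 CPM at day 21. In AT2 it was 856.2, 983.4, 435.0, 441.3, 464.4 and 461.6 CPM, so the day 21 AT2 libraries lay close together while the AT1 libraries did not. The AT1 class at day 21 was mixed. It contained 11, 0, 5 and 7 cells with a UMI of Foxj1, the transcription factor of ciliated cells, and the class marker Ager was at 13.0, 28.8 and 77.6 CPM in those cells, against 10519, 10404 and 10905 CPM in the AT1 cells without a Foxj1 UMI. At day 21 every one of these Foxj1 cells held Cldn3, at 1227, 1683 and 1128 CPM.

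Without the Foxj1 cells, a choice made after seeing the data, Cldn3 in AT1 was 1070 and 1189 CPM at day 1 and 64.4, 0, 58.7 and 110.8 CPM at day 21. These rest on 17, 0, 30 and 75 UMIs, and the count of 0 in the male room air library allows up to 15.9 CPM. At day 1 95.8% and 95.0% of such cells had a Cldn3 UMI, at day 21 23.8% (5 of 21 cells), 0 (of 14 cells, which allows up to 21.4%), 17.1% (6 of 35) and 28.0% (14 of 50), although the median depth was higher at day 21 (12996 to 15391 UMIs) than at day 1 (9371 and 10288). The 4 day 21 libraries all lay below both day 1 libraries. Cldn18 in the same cells was 3126 and 2422 CPM at day 1 and 4191, 3340, 3303 and 3189 CPM at day 21.

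**Figure D2:**
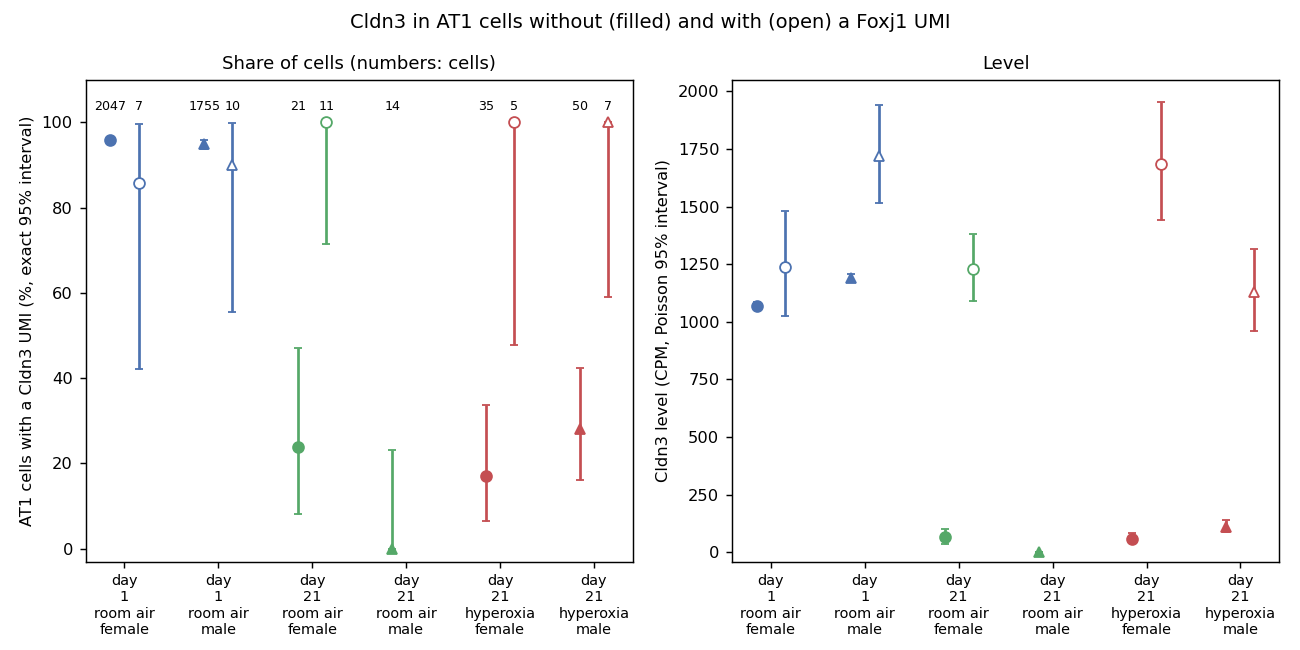
Share of AT1 cells with a Cldn3 UMI (percent, exact binomial 95% interval) and Cldn3 level (CPM) per library, for AT1 cells with and without a Foxj1 UMI. Cells without a Foxj1 UMI fall from 1070 and 1189 CPM at day 1 to between 0 and 110.8 CPM at day 21, while the few cells with one hold 1128 to 1720 CPM.

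Cldn4, a claudin known to rise in injured alveolar epithelium, had 1284 and 996 UMIs in AT1 at day 1 (56.5 and 57.7 CPM) and 8, 0, 8 and 26 UMIs at day 21 (16.2, 0, 13.0 and 31.8 CPM). Every day 21 UMI of Cldn4 in AT1 was in a cell that also held Cldn3. In AT2 it was 13.4 and 5.42 CPM at day 1 and 0 to 0.886 CPM at day 21. Cldn7, which lies on the lateral membrane of epithelial cells, was 368.8, 400.1, 325.6, 179.7, 212.9 and 277.2 CPM in AT1. Cdh1 ran the other way, at 179.4 and 185.5 CPM in AT1 at day 1 and 467.1, 380.5, 404.6 and 371.3 CPM at day 21, with no overlap between the ages. In the AT1 cells without a Foxj1 UMI, Cdh1 was 178.5, 183.4, 420.6, 380.5, 363.7 and 333.8 CPM and Cldn7 was 369.1, 396.4, 132.6, 179.7, 170.1 and 260.0 CPM, so both ages were apart for each gene. Cldn4 in those cells was 56.5, 57.4, 0, 0, 11.7 and 36.9 CPM, with 0, 0, 6 and 25 UMIs at day 21. Cldn3 and Cldn4 have no intron, Cldn7 has 1159 intron bases and Cdh1 62322, and age and counting software cannot be told apart.

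Ocln and Tjp1 were present in both lineages. Ocln was 162.3, 172.0, 145.6, 243.1, 170.6 and 160.0 CPM in AT1 and 67.3, 90.7, 78.2, 87.2, 78.3 and 69.8 CPM in aCap, with lower values in gCap (41.1 to 50.1 CPM). Within the capillary bed it was therefore higher in the aerocyte, in every library. Tjp1 was 488.7, 513.4, 473.2, 576.0, 549.3 and 533.7 CPM in AT1 and 615.4, 613.5, 982.6, 902.8, 889.7 and 909.2 CPM in gCap.

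Across 30 classes, the genes whose level was most like a member's were named by Pearson's r of log2(CPM + 1) among 14600 genes. This describes classes that share libraries and is not a test. The 3 nearest to Cldn5 were Myct1 (r = 0.99), Cdh5 (0.99) and Egfl7 (0.99), a gene secreted by endothelium. The nearest to Cdh5 were Podxl, Myzap and Arhgef15, and to Esam Slc9a3r2, Ecscr and S100a16. The nearest to Cldn3 was Nkx2-1 (r = 0.98), the transcription factor of lung epithelium, followed by Tmem213 and Crb3, a polarity protein of epithelial tight junctions. Cldn18 had Mal2, Clic3 and Myh14, Cldn7 had Wwc1, Crb3 and Irx2, and Cldn4 had Wdr45, Slc6a14 and Mab21l4. Ocln had Tspan15, Bcam and Tspan8, and Tjp1 had the caveolar genes Cavin1, Ehd2 and Cavin2. Cdh1 had no gene above 0.82 (Homer2, St14 and Perp), and its r with the epithelial claudins was 0.52 to 0.64.

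Outside the epithelium, Cdh1 was present in several immune classes over a wide range of levels. Basophils, granulocytes of allergic responses, held a Cdh1 UMI in 94.6% of 74 cells (exact binomial 95% interval 86.7% to 98.5%) and 86.0% of 57 cells in room air at day 21, at 415.5 and 417.3 CPM. The hyperoxia libraries held only 5 and 2 such cells. The mast cell and basophil class of day 1 held it in 78.1% of 32 and 87.5% of 24 cells, at 223.3 and 201.0 CPM. Neutrophils had a share of 0.307% to 0.968%, at a median depth of 3410 to 5331 UMIs against 8004 to 9692 in basophils and in the mast cell class. Thinned to 2000 UMIs, the basophil shares were 45.9% and 56.1% and the neutrophil shares 0% to 0.494%. Few UMIs of other epithelial transcripts were found in the room air basophils: Cldn7, Cldn18 and Krt8 had 0 in both libraries, Epcam 1 and 0, Krt19 0 and 1, Krt18 3 and 2 and Cldn3 2 and 1. The day 1 mast cell and basophil class differed between its libraries. The female library held Krt8 and Cldn18 at 2 UMIs each, Cldn3 at 1 and no Epcam, whereas the male library held Krt8 at 22, Krt18 at 28, Krt19 at 23, Cldn18 at 57, Cldn7 at 13 and Epcam at 8 UMIs. Of the cells with a Cdh1 UMI in that male library, 85.7% had no UMI of a keratin, Cldn3 or Cldn7.

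Alveolar macrophages held a Cdh1 UMI in 59.1%, 69.5%, 52.5%, 60.9%, 34.6% and 50.6% of cells, at 77.7, 95.5, 57.4, 65.6, 40.0 and 57.0 CPM. Thinned, the share was 8.05% to 15.3%, still above the neutrophils. At day 21 these macrophages also held Krt19 (3763, 2060, 492 and 1169 UMIs) and little Epcam (112, 63, 14 and 21 UMIs). The female hyperoxia library had the lowest level. Dendritic cells held a Cdh1 UMI in 26.1%, 13.1%, 19.6% and 14.3% of cells at day 21, at 24.2, 13.9, 30.1 and 16.1 CPM. At day 1, levels like those of dendritic cells stood in transient macrophages (20.7% and 16.3% of cells, 21.0 and 15.7 CPM), in B cells (34.2 and 27.6 CPM) and in the second interstitial macrophage class (20.7 and 41.6 CPM, from 13 and 17 cells). Other epithelial transcripts were present beside it in the first pair. The B cells held Cldn18 at 88.1 and 56.6 CPM and Cldn3 at 48.5 and 35.5 CPM, and the transient macrophages 398 and 593 UMIs of keratins, Cldn3 and Cldn7. The part of these in the Cdh1 level was not tested.

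**Figure D3:**
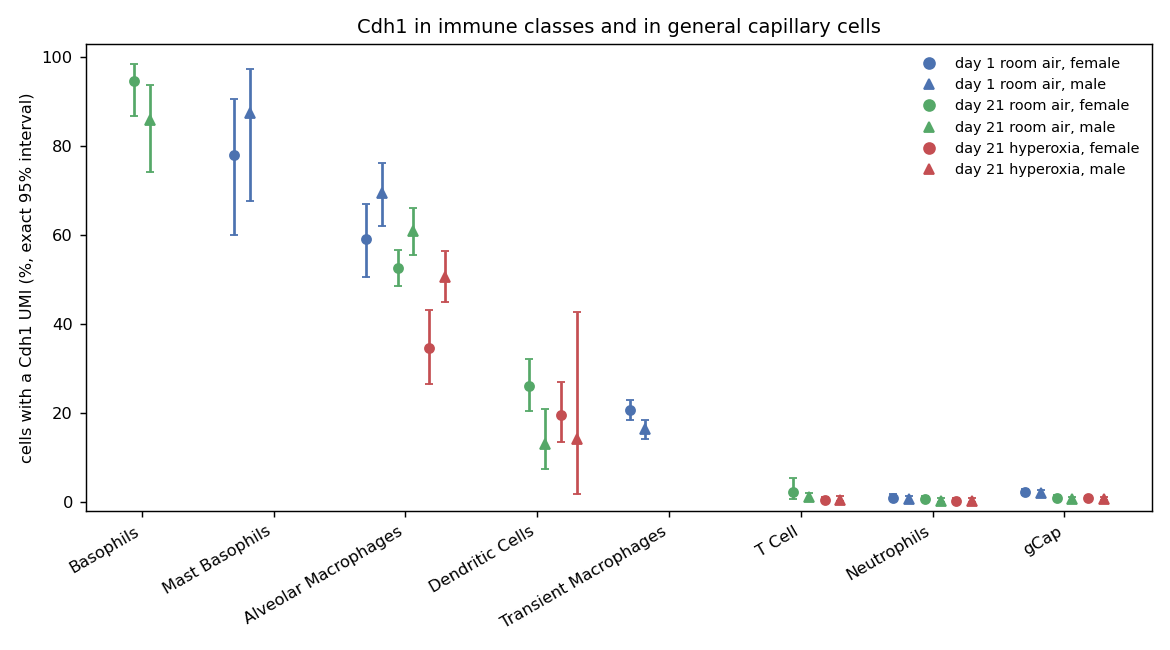
Percent of cells with a Cdh1 UMI per class and library (exact binomial 95% interval). Basophils and the mast cell and basophil class lie between 78.1% and 94.6% in the room air libraries and alveolar macrophages between 34.6% and 69.5%, while neutrophils reach at most 0.968%.

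Outside the endothelium, the endothelial members were unequal. Cells of a class were split by a UMI of Tie1, Egfl7 or Kdr, endothelial genes that are not members, a choice made after seeing the data. In AT1 cells without such a UMI, Cldn5 was 11.9, 8.89, 6.03, 32.7, 12.3 and 14.8 CPM and Cdh5 was 9.14, 10.2, 6.03, 54.5, 12.3 and 7.42 CPM. Esam in the same AT1 cells was 102.1, 108.8, 63.4, 174.5, 159.3 and 116.2 CPM, a range of 12.3% to 28.7% of the level in the endothelial cells of the same library, whereas Cldn5 reached 0.232% to 0.936% and Cdh5 0.304% to 2.88%. These are 1171, 1172, 21, 8, 16 and 29 cells, and the highest value of each gene is that of the 8 cells of the day 21 male room air library (16 Esam, 3 Cldn5 and 5 Cdh5 UMIs). Without that library the ranges are 12.3% to 28.1% for Esam, 0.232% to 0.443% for Cldn5 and 0.304% to 0.825% for Cdh5. Pericytes, the mural cells of capillaries, also kept Esam: it was 110.2, 112.5, 81.9, 75.9, 68.9 and 85.8 CPM (12.1% to 20.5% of the endothelial level), while Cldn5 was 16.3, 0, 28.7, 37.9, 21.5 and 6.60 CPM (0% to 1.1%). Matrix fibroblasts had Esam at 1.76 to 12.2 CPM (0.31% to 2.18%) and Cldn5 at 2.81 to 16.6 CPM (0.114% to 0.476%). Tjp1 was present in mesenchymal cells without such a UMI: it was 121.4 to 231.6 CPM in myofibroblasts (21.0% to 27.0% of the endothelial level), 138.8 to 240.3 CPM in pericytes and 58.3 to 107.7 CPM in matrix fibroblasts.

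**Figure D4:**
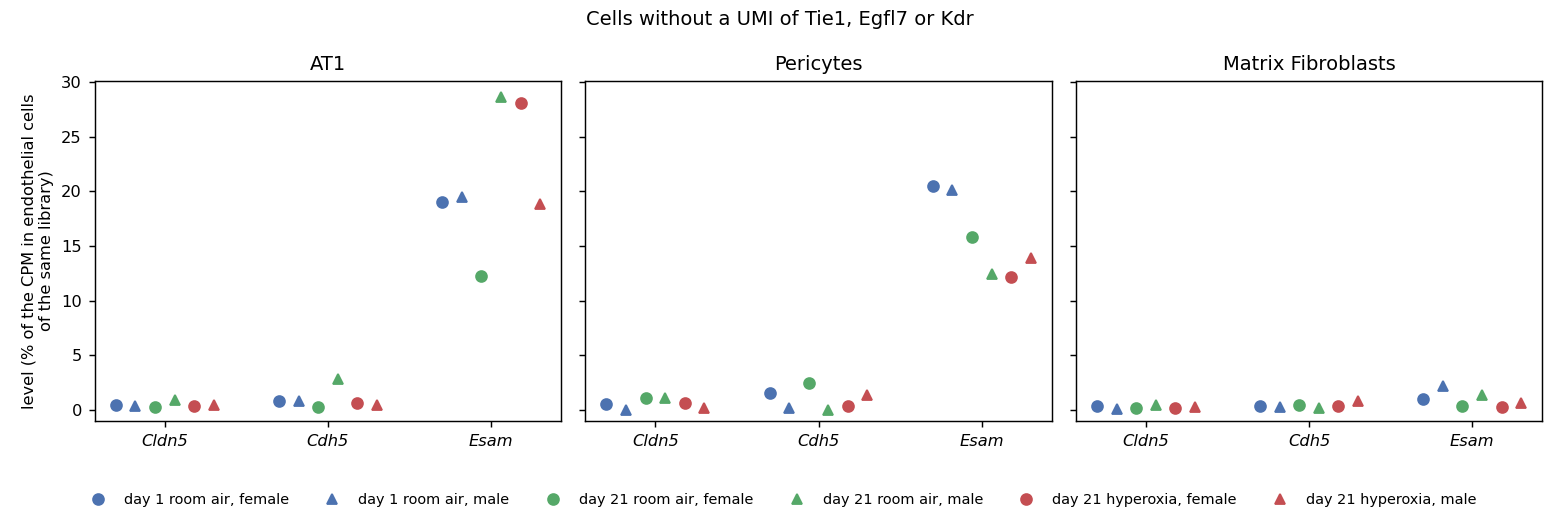
Level of Cldn5, Cdh5 and Esam in AT1 cells, pericytes and matrix fibroblasts without a UMI of Tie1, Egfl7 or Kdr, as a percent of the CPM in all endothelial cells of the same library. Each point is 1 library, and Esam lies above Cldn5 on this scale in AT1 and pericytes in all 6 libraries.

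Matrix fibroblasts with such a UMI held 836.0, 419.5, 897.9, 1462, 1597 and 1745 CPM of Cldn5, and they were 21.2%, 22.0%, 62.7%, 62.1%, 57.7% and 68.0% of their class. The matrix fibroblast level of Cldn5 in all cells, 504.9 to 1131 CPM at day 21, was thus carried by cells that also held other endothelial transcripts. As a share of the level in endothelial cells of the library, Esam in all AT1 cells was 16.1% to 29.8% and Cldn5 1.97% to 9.41%. Whether doublets or free RNA account for these cells was not tested.

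The comparison of hyperoxia with room air at day 21 asks what remains of the injury after recovery in room air. In the endothelial classes, none of the 25 pairs of member and class passed edgeR's quasi-likelihood test at an adjusted p under 0.05, where 1.58% of all gene and class pairs of these classes passed. At an unadjusted p under 0.05 there were 3 of the 25, against 9.08% of all pairs of these classes. The median log2 change of the 25 was -0.049, and the median over all genes of a class lay between -0.024 and 0.014 in the classes tested. Cldn5 in gCap was 2087 and 2760 CPM in room air and 2694 and 2784 CPM after hyperoxia, and the log2 change was 0.21 ± 0.10 (SE, adjusted p = 0.409 by edgeR). In aCap it was 0.09 ± 0.09, in arterial cells 0.25 ± 0.10 and in venous cells -0.12 ± 0.20. The room air and hyperoxia libraries overlapped in aCap, gCap and venous cells.

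Cdh5 differed by -0.07 in gCap, -0.08 in aCap, -0.10 in arterial and 0.10 in venous cells on the log2 scale, with standard errors of 0.07 to 0.20. Esam differed by 0.12, 0.07, 0.23 and -0.07, and Tjp1 by -0.05, -0.01, -0.09 and 0.15 in the same order. The smallest adjusted p among the 25 pairs was 0.231, for Cldn5 in arterial cells, where both hyperoxia libraries (2144 and 2191 CPM) lay above both room air libraries (1589 and 2132 CPM).

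Outside the endothelium, members passed in 4 of the 10 classes tested: alveolar macrophages, nonclassical monocytes, B cells and myofibroblasts. Of all 75 pairs tested over 14 classes, 16 passed and all 16 were higher after hyperoxia, where 2.28% of all gene and class pairs passed and 1.63% were higher. At an unadjusted p under 0.05 there were 31, against 9.58% of all pairs, and the median log2 change of the 75 was 0.40. Of the 40 pairs in immune classes 13 passed (2.76% of all pairs there) and of the 10 in mesenchymal classes 3 (1.84%). Alveolar macrophages had Cldn5 at 9.72 and 15.6 CPM in room air and 261.5 and 138.9 CPM after hyperoxia, a log2 change of 3.93 ± 0.20 (adjusted p = 2.7e-13). Their Cdh5 changed by 3.19, Esam by 3.29, Tjp1 by 2.75 and Cldn18, the epithelial claudin, by 1.26 (adjusted p = 0.034). Nonclassical monocytes, patrolling cells of the vessel wall, had Cldn5 at 11.04 and 19.74 CPM in room air and 44.8 and 73.0 CPM after hyperoxia. In both classes the libraries of the exposures did not overlap.

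B cells had Cldn5 at 60.6 and 68.4 CPM in room air and 224.5 and 610.1 CPM after hyperoxia (log2 change 2.49, adjusted p = 0.035), and Cdh5, Esam and Tjp1 rose with it by 2.42, 2.68 and 2.63. Myofibroblasts had Cldn5 at 4.70 and 96.8 CPM in room air and 97.9 and 342.6 CPM after hyperoxia, and Cdh5, Cldn5 and Esam passed in them. The myofibroblast class held 56 to 98 cells per library. Leaving out either room air library lost the B cell and myofibroblast calls, and leaving out the male hyperoxia library lost those of the myofibroblasts, of Cldn18 in alveolar macrophages and of Esam in nonclassical monocytes. Without the Xist-free cells of the female hyperoxia library, 15 of 76 pairs passed.

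Called doublets moved with these increases. Scrublet, which scores cells that resemble a sum of 2 others, called 2.3% and 2.9% of alveolar macrophages in room air and 24.3% and 17.2% after hyperoxia. Those cells held 93.7% and 85.8% of the endothelial member UMIs of the class after hyperoxia, against 9.5% and 34.3% in room air. Without them, Cldn5 in alveolar macrophages was 9.055, 11.03, 22.08 and 24.27 CPM, with a log2 change of 1.18 (adjusted p = 6.8e-05), and Cdh5 changed by 0.62 (adjusted p = 0.27). In nonclassical monocytes called doublets held 69.1% and 80.4% of these UMIs after hyperoxia and 26.5% and 44.0% in room air, and Cldn5 changed by 0.50 without them. In B cells the doublets held 95.0% and 96.9% of these UMIs after hyperoxia and 85.0% and 90.1% in room air, and Cldn5 without them was 7.98, 5.68, 10.5 and 65.3 CPM. With called doublets left out, 2 of 69 pairs passed (1.35% of all pairs): Cldn5 in alveolar macrophages and Cldn5 in B cells (log2 change 2.28, adjusted p = 0.0090). Of the 16 calls, 11 passed the low-count filter of that fit and 9 of these were lost. The others did not pass that filter once called doublets were left out.

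**Figure D5:**
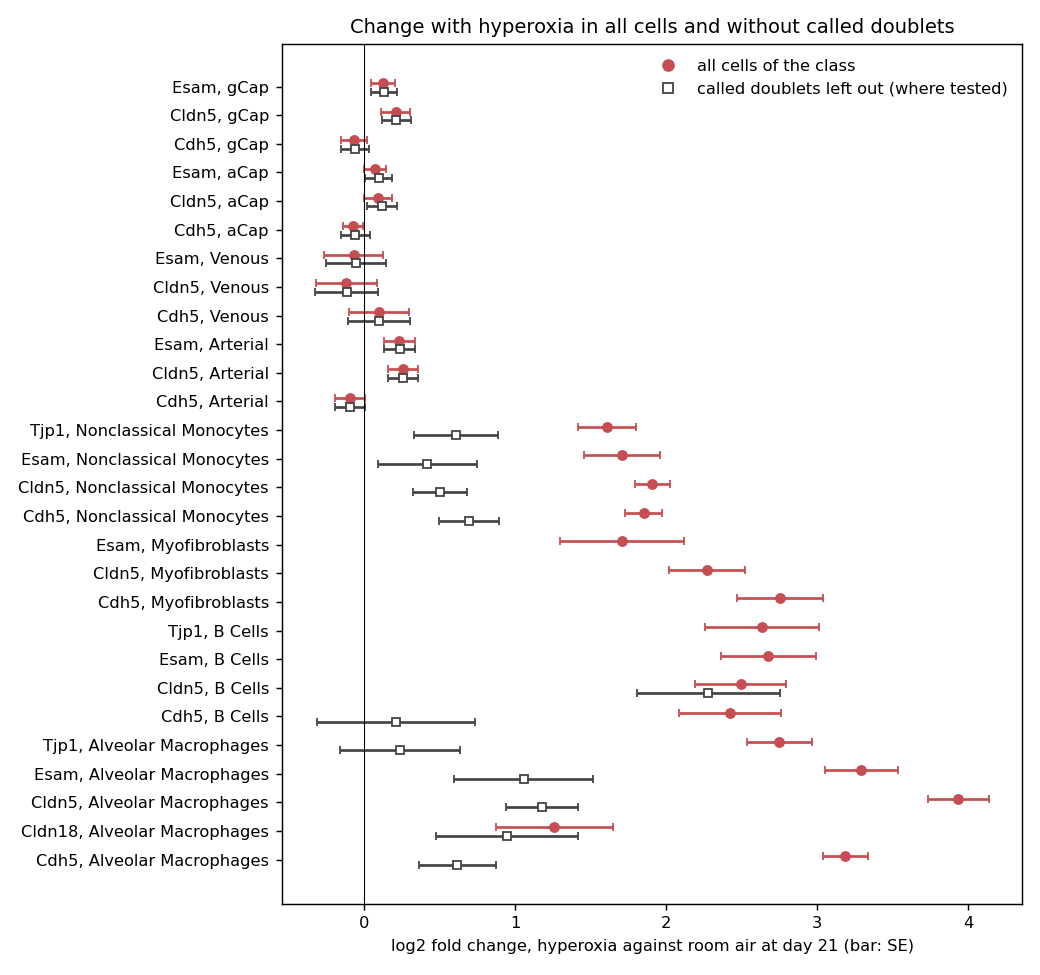
Log2 fold change (± SE) of Cldn5, Cdh5 and Esam in 4 endothelial classes and of the 16 pairs of member and class that passed, hyperoxia against room air at day 21, with all cells and with called doublets left out. The changes of the 16 pairs with all cells lie between 1.26 and 3.93. Without called doublets Cldn5 in alveolar macrophages is 1.18 and in B cells 2.28. The pairs with no point did not pass the low-count filter once called doublets were left out.

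Classes with fewer cells were fitted with a minimum of 10 cells per library, a choice made after seeing the data, and 20 of 102 pairs passed, all higher (2.24% of all pairs passed in either direction). In AT1 none of the members passed, nor did any of the 8181 genes (0.0%). In lymphatic endothelium Esam changed by 1.83 (adjusted p = 0.0081), where 7.51% of the genes of that class passed. The lymphatic markers Prox1, Lyve1, Mmrn1 and Flt4 summed to 3620 and 3863 CPM in room air and 1521 and 2206 CPM after hyperoxia in those cells, the gCap markers to 495 and 451 against 1167 and 1098 CPM, and the median depth was 8465 and 7151 against 15062 and 10058 UMIs. Their part in the Esam change was not tested. Dendritic cells had higher Cldn5 (1.74), Cdh5 (2.43) and Tjp1 (2.48), with 14 cells in the male hyperoxia library, where 1.98% of the genes of that class passed.

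The other junction genes were tested in the same classes. Of 614 pairs of gene and class, 58 passed (9.45%, against 2.28% of all pairs), 55 higher and 3 lower, with a median log2 change of 0.11 over all 614. In the endothelial classes 6 of 190 passed (3.16%, against 1.58% of all pairs there). Cdh13, an atypical cadherin of vessels, rose in gCap (8.55 and 8.47 CPM in room air, 14.5 and 17.4 CPM after hyperoxia, log2 change 0.91) and in arterial cells (0.62). Ptprb, the phosphatase that acts on VE-cadherin, rose in aCap from 182.6 and 161.5 CPM to 270.5 and 246.1 CPM (0.59, adjusted p = 0.012), but by 0.24 without called doublets (adjusted p = 0.149 by edgeR). Rapgef3, an exchange factor that activates Rap1 and tightens junctions, rose in arterial cells (0.58) and in gCap (0.31), and Pard6g, a polarity protein, fell by 0.52 in arterial cells. In these 6 pairs both hyperoxia libraries lay on 1 side of both room air libraries.

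In the immune and mesenchymal classes 44 of 338 (13.0%) and 8 of 86 pairs (9.3%) passed, against 2.76% and 1.84% of all pairs there. Kdr, the VEGF receptor, passed in 4 of these classes, with changes of 0.98 to 3.15. Without called doublets Kdr changed by -0.20 in alveolar macrophages (adjusted p = 0.983 by edgeR) and by -0.090 in nonclassical monocytes (adjusted p = 0.953). In B cells and myofibroblasts Kdr did not pass the low-count filter of that fit. Ptprb passed in 3 of them beside aCap, Rapgef3 in 2 beside gCap and arterial cells, and Flt1, Pecam1, S1pr1, Tek, Tie1, Pard3 and Mcam in 3 each, most of which are endothelial genes. With called doublets left out 14 of 548 pairs passed (2.55%, against 1.35% of all pairs in that fit), 7 of 190 in the endothelial classes, 7 of 281 in the immune classes and 0 of 77 in the mesenchymal classes, the last with 12 at an unadjusted p under 0.05 by edgeR.

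Day 21 against day 1 in room air asks how junction transcripts change as alveoli form. Many genes differed between these ages, and 54.3% of all gene and class pairs passed. The members stood near that share with 47 of 75 pairs, of which 11 were higher and 36 lower (28.6% and 25.7% of all pairs). Without called doublets 38 of 61 pairs passed (55.2% of all pairs), 14 higher and 24 lower, and in the immune classes the split went from 1 higher and 16 lower to 4 and 6. The median log2 change of the 75 was -0.64, that of the 61 was -0.18, and that over all genes of a class lay between -0.027 and 0.044. In the endothelial classes 21 of 33 passed, against 57.8% of all pairs there. Of the 12 pairs of Cldn5, Cdh5 and Esam in these classes, 2 were higher and 3 lower, with a median change of -0.014. Outside the lineage a member marks (endothelium for these genes, epithelium for Cdh1 and the other claudins), 3 of 47 pairs were higher and 32 lower. Their median change was -1.64. Several of these lower pairs held few UMIs at day 21 and passed the low-count filter through day 1.

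Cldn5 in aCap was 6648 and 5663 CPM at day 1 and 3757 and 5103 CPM at day 21, a change of -0.57 ± 0.13 (adjusted p = 7.3e-05), and in arterial cells it changed by -0.43 (adjusted p = 0.0038). In gCap the change was -0.0018 (adjusted p = 0.990). Cdh5 rose in gCap by 0.48 and in arterial cells by 0.52, where both day 21 libraries exceeded both day 1 libraries, and in aCap the change was 0.23 (adjusted p = 0.147). Esam fell by 0.32 in gCap. Tjp1 rose by 0.49 in gCap, 0.42 in arterial and 1.11 in venous cells, from 235.4 and 203.9 CPM to 570.4 and 468.2 CPM in the last.

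Gene structure moved with the direction of these changes. Cldn3, Cldn4 and Cldn5 have no intron, Cldn7 has 1159 intron bases, Esam 7375, Cdh5 38684, Cdh1 62322 and Tjp1 223806. Among the junction genes and members tested in gCap, those that rose had a median of 94558 intron bases and those that fell 26100, with Spearman's rho of 0.45 between change and intron length over 64 genes. The rho was 0.21 to 0.58 over the 10 classes. In a fit restricted to genes without introns, a choice made after seeing the data, Cldn5 changed by 0.0012 in aCap (adjusted p = 0.996), 0.21 in arterial and 0.59 in gCap (adjusted p = 0.073). Whether introns were counted at either age is not given in the sources used here, and age and software version cannot be told apart.

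Epithelial members fell outside the epithelium. Cldn3 was lower in all 10 classes tested. In gCap it fell by 5.03 on the log2 scale, from 235 and 200 UMIs to 12 and 6. The other classes held at most 6 UMIs in a day 21 library, so no fold is given for them. Such pairs passed the low-count filter through their day 1 counts, so their shared direction carries no weight of its own. In venous cells and matrix fibroblasts both day 21 libraries were at 0 UMIs. In aCap Cldn3 went from 19.3 and 27.4 CPM to 0.171 and 0.237 CPM (2 UMIs in each library). Cldn18 was lower in 8 of 9 classes, in aCap from 68.0 and 48.4 CPM to 12.7 and 11.1 CPM. Some of these classes held few Cldn18 UMIs at day 21: B cells 0 and 5, myofibroblasts 0 and 1 and venous cells 6 and 2. Cldn7 was lower in all 5 classes tested, with at most 12 UMIs in a day 21 library, and Cdh1 in aCap, gCap, B cells and alveolar macrophages. The Cldn7 pairs, and Cdh1 in B cells (50 and 38 UMIs against 1 and 0), also passed the filter through day 1. So did Cldn18 in B cells, myofibroblasts and venous cells, and Cdh1 in aCap (3 and 6 UMIs at day 21). The shared direction of all these pairs carries no weight of its own. Over the same interval epithelial cells fell from 21.8% and 30.3% to 1.94% and 0.297% of the cells with a class. Cldn3 also passed, lower at day 21, in the fit of genes without introns in all 9 classes where that fit had a value. That fit used the same counts and the same low-count filter, so this shared direction carries no weight of its own.

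In matrix fibroblasts the endothelial members rose, Cdh5 by 2.51, Cldn5 by 1.82 and Esam by 1.55, and so did Tjp1, by 1.27. The share of these fibroblasts with a UMI of Tie1, Egfl7 or Kdr went from 21.2% and 22.0% to 62.7% and 62.1%, and its part in the increase was not tested. Ocln passed as higher at day 21 in alveolar macrophages, at 0.873 and 1.56 CPM against 9.97 and 9.62 CPM. It had 2 and 5 UMIs at day 1 and 118 and 67 at day 21, so no fold is given. This pair passed the low-count filter through its day 21 counts. Ocln has 51990 intron bases, and age and counting software cannot be told apart. Cdh1 fell by 0.85 in the same macrophages (adjusted p = 7.4e-05).

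With the minimum of 10 cells, AT1 could be tested for age, and 8.2% of its genes passed. Cldn4 passed as lower at day 21, with 1284 and 996 UMIs at day 1 and 8 and 0 at day 21, so no fold is given. It passed the low-count filter through its day 1 counts, and the 8 UMIs all lay in cells with a Foxj1 UMI. Cldn5 fell by 1.60 (adjusted p = 0.012 by edgeR). Most Cldn5 UMIs of AT1 at day 1 lay in cells with a UMI of Tie1, Egfl7 or Kdr (5983 and 2563, against 137 and 89 in the others), and in the others Cldn5 was 11.9 and 8.89 CPM at day 1 and 6.03 and 32.7 CPM at day 21, so the ages overlapped. Cldn3 changed by -3.32 (adjusted p = 0.117), with the Foxj1 cells included, Cldn7 by -1.06 and Cdh1 by 0.79, none of which passed. The day 21 side of this fit has 32 and 14 cells. In pericytes, where 36.2% of the genes passed, Cldn18, Cldn3, Cldn7 and Cdh1 were lower at day 21. Cldn18 fell by 5.75, from 527 and 514 UMIs to 9 and 2. At day 21 Cldn3 had 4 and 4 UMIs and Cldn7 and Cdh1 had 1 and 1 each, so no fold is given for them. These pairs passed the low-count filter through their day 1 counts. Cdh5 rose by 1.01 in pericytes. The share of pericytes with a UMI of Tie1, Egfl7 or Kdr went from 51.3% and 48.1% to 67.5% and 67.4%, and those cells held 370 and 167 of the Cdh5 UMIs at day 21, against 12 and 0 in the other pericytes. The part of this share in the increase was not tested.

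Of the other junction genes 260 of 449 pairs passed (57.9%, near the 54.3% of all pairs), 159 higher and 101 lower, with a median change of 0.21. The scaffolds Magi3 (9 classes, all higher, 1.18 to 2.93), Mpp5 (8 of 9 higher) and Magi1 (6 classes, 1.43 to 3.54) and the polarity gene Pard3 (7 classes) were among those called in the most classes, with Tek, the angiopoietin receptor, Ctnnd1, p120 catenin, Pecam1, Vezt and Rap1a (7 classes each). These 9 genes carry 43376 to 597884 intron bases. Ctnnd1 and Pecam1 were each higher in 6 of their 7 classes and lower in 1, and Magi1, Pard3, Tek, Vezt and Rap1a were higher in all of theirs. In gCap, Pard3 went from 36.2 and 29.8 CPM to 381.1 and 352.9 CPM, whereas Lsr, an angulin of epithelial tight junctions, went from 10.7 and 8.88 CPM to 0.482 and 0.941 CPM. The share of epithelial cells in the libraries also fell over this interval, and its part in the Lsr change was not tested.

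Females and males differed in few pairs. Of the 14 classes tested, 10 were fitted over all 6 libraries and 4, which had under 50 cells at day 1, over the 4 day 21 libraries. In all 1 of 97 pairs passed (0.179% of all pairs), Cldn5 in nonclassical monocytes over the 4 day 21 libraries, with a log2 difference of -0.77, lower in females (adjusted p = 0.0145), and 14 had an unadjusted p under 0.05 (5.58% of all pairs). In fits that left out a library, this class had sex alone in the model, so exposure was not adjusted for. Leaving out the male hyperoxia library in this way turned the difference to 0.42, and it passed in no such fit in which it had a value. Without that library, females of both exposures (11.04 and 44.8 CPM) stood against males in room air (19.7 CPM). Without the Xist-free cells of the female hyperoxia library edgeR called 0 of 94 pairs. In the fit without called doublets edgeR called 0 of 82 (0.118% of all pairs), with 10 at an unadjusted p under 0.05. Of the other junction genes edgeR called 0 of 644 pairs, with 35 at an unadjusted p under 0.05.

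The interaction asks whether the signed difference between females and males after hyperoxia was another than in room air, where both ages enter the fit. It passed in 3 of 82 pairs (0.428% of all pairs), all in neutrophils, with 14 at an unadjusted p under 0.05 (4.71% of all pairs), in a fit that leaves 1 residual degree of freedom. Cldn5 in neutrophils was 47.7, 10.8, 25.3, 13.0, 17.0 and 48.0 CPM, higher in the female than in the male library in room air at both ages and lower after hyperoxia, and the interaction was -3.02 (adjusted p = 4.7e-19). Esam (11.3, 4.40, 6.06, 5.40, 5.32 and 11.2 CPM) gave -1.79 (adjusted p = 0.032) and Cdh5 (14.8, 16.9, 22.8, 9.91, 18.4 and 27.6 CPM) -1.15 (adjusted p = 0.041). At most 9.01% of neutrophils held a Cldn5 UMI in any library. Without called doublets, the neutrophil Cldn5 level was 19.9, 8.53, 13.1, 10.2, 14.2 and 24.0 CPM and the interaction -1.54 (adjusted p = 0.0049), while Esam and Cdh5 no longer passed. Without the Xist-free cells of the female hyperoxia library 2 of 82 pairs passed. Of the 515 pairs of the other junction genes 8 passed, all in the same direction: S1pr1, Tie1, Kdr and Afdn in neutrophils, Ptprb, Ctnnd1 and Tek in B cells, and the fibroblast cadherin Cdh11 in myofibroblasts. Without called doublets 1 of 458 passed (0.356% of all pairs), with 0 of 148 in the immune classes, where 9 had an unadjusted p under 0.05 by edgeR, and the term of Ctnnd1 in B cells turned to 1.01. None of the 35 endothelial pairs of the members did (0.303% of all pairs there), with 3 at an unadjusted p under 0.05.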

How the data were processed

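Counts of unique molecular identifiers (UMIs) per gene and barcode, deposited by the authors, were analysed for 6 single-cell libraries of mouse lung, each from 3 pooled mice. Per the file headers the counts were made with Cell Ranger 6.0.0 (day 1) and 7.0.1 (day 21), while the submitters' processing notes name Cell Ranger 6.0.0, Seurat 4.1.1 and build mm10. Whether introns were counted is not given in the sources used here. Cell classes are the authors' deposited cluster names. Between 22.0% and 32.8% of a library's barcodes had no class and were kept out of the comparisons.

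Library totals were 122173482 to 163649658 UMIs. Levels are CPM of UMIs summed over all cells of a class. Shares carry exact binomial 95% intervals and levels exact Poisson ones. Both cover counting error alone, and where nothing was counted 3 UMIs (for a share, 3 cells) were taken as the limit. Doublets were called with Scrublet (scanpy 1.11.5) in each library, were kept in the main values and left out in an alternative. They made up 1.41% to 11.1% of the cells with a class. How the authors treated doublets is not given in the sources used here.

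UMI counts of each class were added up within a library, for classes with at least 50 cells in each library of the fit. Genes were filtered with filterByExpr, scaled by TMM and tested with edgeR 4.0.16 (quasi-likelihood, R 4.3.3, limma 3.58.1), with Benjamini-Hochberg adjustment over all genes of a class and a threshold of 0.05. The 4 day 21 libraries entered the test of hyperoxia and the 4 room air libraries that of age, both with sex as covariate. Both fits leave 1 residual degree of freedom. Sex and the interaction used all 6 libraries with condition as covariate, and for sex a class short of 50 cells at day 1 was fitted over the 4 day 21 libraries. The fits were repeated with called doublets left out, equal cell numbers, DESeq2 1.42.0, no covariate, upper-quartile scaling, no low-count filter, a stricter cell filter (at least 1000 genes, at most 10% mitochondrial UMIs), Xist-free cells of the female hyperoxia library left out, and each library left out in turn. With a library left out, the hyperoxia and age fits had no sex covariate. Sex fits over the day 21 libraries alone then had no condition covariate.

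All 10 members are described. Of the other junction genes, those called in the most classes per comparison are named (at most 10, each with 20 or more UMIs in all libraries of the group where it was higher). For age, 1 of these genes is not reported here. Junction genes named in the endothelial classes, and Lsr, were chosen after their values were seen. The nearest genes are the 3 with the highest Pearson's r to a member over classes with at least 50 cells, among genes with at least 500 UMIs. The members and lists were chosen with earlier results of these data known. Promoter sequences were found for 7 members.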

Additional observations from a re-analysis of the deposited data

Results flagged for a closer look

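The interaction term of edgeR for sex and hyperoxia passed in neutrophils for 3 members, in a fit of all 6 libraries with 1 hyperoxia library of each sex and 1 residual degree of freedom. The values on the log2 scale were -3.02 for Cldn5, -1.79 for Esam and -1.15 for Cdh5 (-3.017, -1.787 and -1.145). Without called doublets Esam and Cdh5 no longer passed, and DESeq2 called 1 member pair in place of 3.

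Members were also present in the barcodes to which the authors gave no class. Their lowest and highest levels over the 6 libraries, in CPM, were as follows. Cldn5 ran from 292 to 609, Cdh5 from 156 to 481 and Esam from 78.5 to 130. Cldn18 ran from 101 to 816, Cldn3 from 57.9 to 567, Cldn4 from 0.156 to 10.2 and Cldn7 from 19.8 to 148. Cdh1 ran from 48.0 to 115, Ocln from 14.7 to 37.9 and Tjp1 from 129 to 229. At day 21 Cldn3 stood at 57.9 to 71.3 CPM in these barcodes and at 1.22 to 17.6 CPM in the cells with a class.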

How the results depend on the processing

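No paired analysis was possible because the labels carry no replicate numbers and each group of sex, age and exposure is 1 library. The order of levels (aCap first for Cldn5, Cdh5 and Esam, AT1 first for Cldn18) held in 24 of 24 pairs of gene and library with called doublets left out, under the stricter cell filter, with the mean of each cell's CPM and without the Xist-free cells. The median share of cells with a Cldn5 UMI over classes outside the endothelium was 10.9%, and 4.82% after thinning each cell to 2000 UMIs or 4.08% when at least 2 UMIs were asked for.

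For hyperoxia, the 16 calls of the members became 26 with no filter on low counts, 8 with no covariate and 2 without called doublets, and 12 to 19 when 1 library was left out. The 58 calls of the other junction genes became 35 with DESeq2, 105 with no filter, 28 with no covariate, 14 without called doublets and 41 to 58 with 1 library left out. In the classes with 50 cells in all 6 libraries, 44 calls became 27 when all 6 were fitted. For age, the 47 calls of the members became 38 to 57 with 1 library left out, and the 260 of the other junction genes became 150 with DESeq2 and 200 to 240 with 1 library left out. For sex, the single call was lost with DESeq2, no covariate, called doublets left out or the Xist-free cells left out (0 each). There were 8 calls with no filter, 2 with equal cell numbers, 2 with the stricter cell filter and 2 to 4 with 1 library left out. For the interaction, 3 calls became 1 with DESeq2, 5 with no filter, 1 without called doublets and 5 with the stricter cell filter. The hyperoxia and age fits with 1 library left out also had no sex covariate, so these choices cannot be told apart there. The cause of these shifts was not tested.

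Some changes (log2) turned their sign, most of them close to 0. With called doublets left out, Cdh5 in myofibroblasts changed with age by 0.33, Kdr changed with hyperoxia by -0.20 in alveolar macrophages and -0.090 in nonclassical monocytes, and the interaction of Ctnnd1 in B cells was 1.01. In the fit of genes without introns, added after seeing the data, Cldn5 changed with age by 0.21 in arterial cells, 0.035 in neutrophils, 0.24 in venous cells, 0.0012 in aCap and 0.59 in gCap. Cldn5 in gCap also changed by 0.027 with no filter, 0.0068 with no covariate and 0.011 with all 6 libraries. Esam in aCap changed with age by -0.077 under upper-quartile scaling and Esam in venous cells with hyperoxia by 0.034 with equal cell numbers. Leaving out 1 library gave ranges for the age change of -0.00098 to 0.37 for Cdh5 in venous cells, -1.36 to 0.69 for Cldn5 in neutrophils, -0.19 to 0.21 for Cldn5 in gCap, -0.20 to 0.11 for Esam in venous cells and -0.058 to 0.12 for Esam in aCap. For hyperoxia the ranges were -0.39 to 0.17 for Cldn5 in venous cells, -0.14 to 0.32 for Cldn5 in aCap, -0.19 to 0.056 for Esam in venous cells, -0.020 to 0.17 for Esam in aCap and -0.024 to 0.29 for Esam in gCap. For sex, Cldn5 in nonclassical monocytes ranged from -2.03 to 0.42, in fits without a covariate for exposure.

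The AT1 and AT2 levels of day 21 rest on 7 to 133 cells per library, and with 1 library per group no test within a sex could be made. The interaction leaves 1 residual degree of freedom, so no library was left out of it.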
